A study of Mus musculus with 13 samples.

Results

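The 9 homeobox genes that pattern the ventral forebrain, the eye field and the anterior head were followed in the open chromatin of the developing mouse: Gsx1, Gsx2, Nkx2-1, Six3, Six6, Otx1, Otx2, Rax and Hesx1. A region of open chromatin was assigned to one of these genes when its strongest summit lay within 100 kb of the gene body. Of 1357031 regions with distinct coordinates over 13 libraries, 1448 met this rule, from 94 near Gsx1 to 192 near Gsx2 and 192 near Hesx1. The measurement was ATAC-seq, in which the Tn5 transposase cuts and tags accessible DNA, on E12.5 embryos kept on a B6CBAF1 background. The compared tissues were distal forelimb (DFL, the future hand), proximal forelimb (PFL, the future forearm and elbow) and forebrain (FB), each from wild-type (wt) embryos and from embryos of the II1TDOM 542 line, with 2 libraries per tissue and genotype. The 542 embryos were homozygous for a copy of a distal limb enhancer, with a LacZ reporter, inserted into the regulatory domain beside the HoxD cluster, and come from 1 founder line. Each library came from the pooled tissue of several embryos. None of the 9 genes lies near that insertion. A further wt DFL library, re-used by the study from earlier work, entered no comparison.

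These genes encode transcription factors that bind DNA through a homeodomain, in Six3 and Six6 together with a second conserved domain. Gsx1 and Gsx2 set the identity of the ganglionic eminences, Nkx2-1 that of the medial ganglionic eminence and hypothalamus, and Otx1 and Otx2 act in the forebrain and midbrain. Six3, Six6 and Rax are known for the eye field, the optic vesicle and the hypothalamus, and Hesx1 for the anterior neural plate and the pituitary. The limb tissues serve as the reference for the forebrain.

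In all, 8 stretches of these regions are printed here because the comparison of tissues turns on them: 7 lie in regions found among the 50000 strongest of all 4 forebrain libraries and of none of the 8 compared limb libraries (forebrain only), among them the strongest near Otx1, Otx2, Gsx2 and Nkx2-1, and 1 lies in the strongest region near these genes with the opposite pattern (limb only). A forebrain-only region could still be called in the compared limb libraries at a lower rank, as it was for 9 of the 26 such regions near these genes. Each holds the strongest summit and the 100 bases on either side of it, on the plus strand of GRCm38 (mm10), and is named by its gene and the distance of the summit from the annotated gene start in the direction of transcription. Capitals mark exact matches, on either strand, to TAATTA (a homeodomain core, its own reverse complement), TAATCC (the OTX type), TGATAC (a core known for Six3 and its relatives) and CAAGTG (the NKX2 type). TAATTA and TAATCC share their first 4 letters.
Otx1 -14.7 kb, forebrain only, chr11:22017534-22017734: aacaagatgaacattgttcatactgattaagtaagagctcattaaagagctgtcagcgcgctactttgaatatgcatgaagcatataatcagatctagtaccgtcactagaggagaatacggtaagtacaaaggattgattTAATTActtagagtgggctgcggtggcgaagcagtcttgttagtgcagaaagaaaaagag
Otx2 -87.6 kb, forebrain only, chr14:48761314-48761514: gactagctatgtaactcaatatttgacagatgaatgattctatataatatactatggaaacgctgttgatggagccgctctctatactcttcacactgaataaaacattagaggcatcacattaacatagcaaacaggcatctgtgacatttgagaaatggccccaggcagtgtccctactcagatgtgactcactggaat
Otx2 -64.5 kb, forebrain only, chr14:48738233-48738433: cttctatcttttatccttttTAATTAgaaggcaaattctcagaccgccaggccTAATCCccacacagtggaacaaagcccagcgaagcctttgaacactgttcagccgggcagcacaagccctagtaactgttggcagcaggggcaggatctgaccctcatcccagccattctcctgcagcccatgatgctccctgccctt
Gsx2 -76.4 kb, forebrain only, chr5:74999127-74999327: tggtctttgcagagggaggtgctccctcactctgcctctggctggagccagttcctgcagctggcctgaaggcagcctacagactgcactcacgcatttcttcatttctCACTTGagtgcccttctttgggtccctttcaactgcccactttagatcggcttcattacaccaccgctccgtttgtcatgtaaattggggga
Gsx2 -62.6 kb, forebrain only, chr5:75012894-75013094: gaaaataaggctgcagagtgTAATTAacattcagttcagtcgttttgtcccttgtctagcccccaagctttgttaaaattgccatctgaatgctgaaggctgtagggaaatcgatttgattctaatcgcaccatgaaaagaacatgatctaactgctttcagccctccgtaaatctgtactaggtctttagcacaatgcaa
Nkx2-1 +54.1 kb, forebrain only, chr12:56482702-56482902: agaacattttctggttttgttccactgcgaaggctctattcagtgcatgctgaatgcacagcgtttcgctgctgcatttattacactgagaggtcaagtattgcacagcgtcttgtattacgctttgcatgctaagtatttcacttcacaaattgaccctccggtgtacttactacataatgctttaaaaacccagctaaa
Six3 promoter, forebrain only, chr17:85620642-85620842: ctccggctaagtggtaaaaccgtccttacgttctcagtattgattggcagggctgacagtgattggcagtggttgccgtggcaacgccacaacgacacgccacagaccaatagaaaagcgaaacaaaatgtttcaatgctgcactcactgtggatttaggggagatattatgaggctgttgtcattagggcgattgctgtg
Otx2 -97.2 kb, limb only, chr14:48770951-48771151: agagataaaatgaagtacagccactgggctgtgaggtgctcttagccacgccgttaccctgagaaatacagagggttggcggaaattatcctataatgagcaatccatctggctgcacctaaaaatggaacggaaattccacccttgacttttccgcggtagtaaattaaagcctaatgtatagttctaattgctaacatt

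Seen by their letters, the strongest Otx1 region holds 1 TAATTA, and the Otx2 region at -64.5 kb holds 1 TAATTA and 1 TAATCC. The Gsx2 region at -76.4 kb holds a match to CAAGTG, read as CACTTG on the printed strand. The strongest Otx2 region, the Nkx2-1 region, the Six3 promoter and the Otx2 limb region hold no match to any of the 4 motifs in these windows. Among the 26 regions near the 9 genes in the forebrain-only class, 8 (30.8%) held TAATTA, beside 26.2% of all forebrain-only regions of the genome and 10.1% of all 111905 regions. TAATCC was found in 4 of 26 (15.4%), beside 10.9% of all forebrain-only and 6.7% of all regions. CAAGTG was found in 2 of 26 (7.69%) against 13.1% and 11.1%, and TGATAC in 0 of 26 against 3.65% and 3.71%. The forebrain-only regions near these genes thus held TAATTA about as often as forebrain-only regions elsewhere.

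The 12 compared libraries held 85070 to 118297 regions. Depth, estimated from the genome-wide background in the peak files, was 51.4 to 70.7 M tags (M, mega) in the forebrain libraries and 37.5 to 54.5 M in the limb libraries, so depth moved with tissue. For this reason the lists were cut to the 50000 strongest regions of each library (by q-value) before regions were counted. In limb, depth also moved with genotype, at 44.0 to 54.5 M tags in wt and 37.5 to 41.4 M in 542. In forebrain it was 70.7 and 56.6 M in wt and 64.5 and 51.4 M in 542. The forebrain and limb labels were checked against marker genes by the same counts of regions. All 7 forebrain markers (among them Emx1 and Neurog2) had more regions in forebrain, with 72 to 82 regions in total per forebrain library against 26 to 41 per limb library. All 4 limb mesenchyme markers (Prrx1, Tbx5, Twist1 and Tbx15) had fewer, with 8 to 14 against 25 to 33. The 5 distal forelimb markers held 45 to 55 regions in total per DFL library and 37 to 42 per PFL library. The 3 proximal markers counted held 32 to 34 in DFL and 33 to 37 in PFL, so their totals overlapped. No single distal or proximal marker passed between DFL and PFL. Among retina markers, Atoh7 and Rax did not pass, and among pituitary markers Tbx19 had more regions in forebrain and Pou1f1 fewer. Of markers of other cells, 1 of 4 for muscle and 2 of 3 for endothelium had fewer regions in forebrain, and 1 of 2 for blood and 1 of 4 for limb ectoderm had more, and the part of such cells in the results was not tested. The labels do not say whether eye or pituitary tissue was part of the forebrain samples. In such bulk tissue, more open cells and more opening per cell cannot be told apart.

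Over the 9 genes together, each forebrain library held more open regions than any limb library. Among the 50000 strongest regions, 67, 70, 72 and 76 lay near the 9 genes in the wt and then the 542 forebrain libraries. The DFL libraries held 50, 52, 46 and 47, and the PFL libraries 48, 47, 47 and 44. The additional wt DFL library, the deepest of all at 78.0 M tags, held 52. The part of depth in these totals was not tested. The plot of totals against depth shows both.

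**Figure D1:**
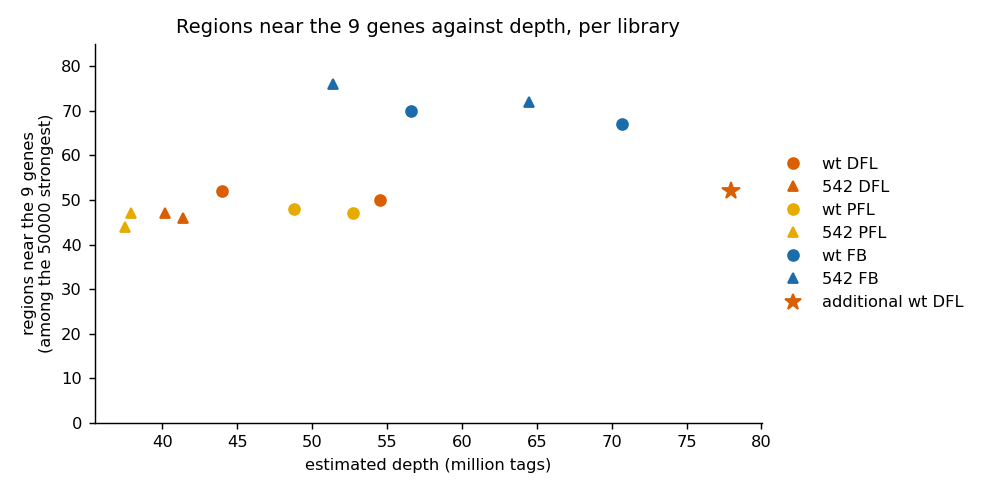
Number of regions near the 9 genes among the 50000 strongest of each library (y axis) against the library's estimated depth in M tags (x axis), with colour for tissue, shape for genotype and a star for the additional wt DFL library. The 4 forebrain libraries sit at 67 to 76 and every limb library at 44 to 52, the star included at 78.0 M tags.

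The excess was carried by 3 genes: Otx1, Otx2 and Nkx2-1 had more regions in every forebrain library than in any limb library. With the other 6 genes the groups overlapped. How many of all genes separate in this way was not counted. Of the 9 genes, 3 passed the test in the direction of forebrain and 0 in the other direction, beside 14.2% and 11.0% of all 19323 protein-coding genes tested. The median difference was 1.88 regions over the 9 genes and 0 over all genes. The test was a two-sided exact permutation test over the 4 forebrain and 8 limb libraries, adjusted over all genes by Benjamini-Hochberg, and the smallest p it can give is 0.00202.

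**Figure D2:**
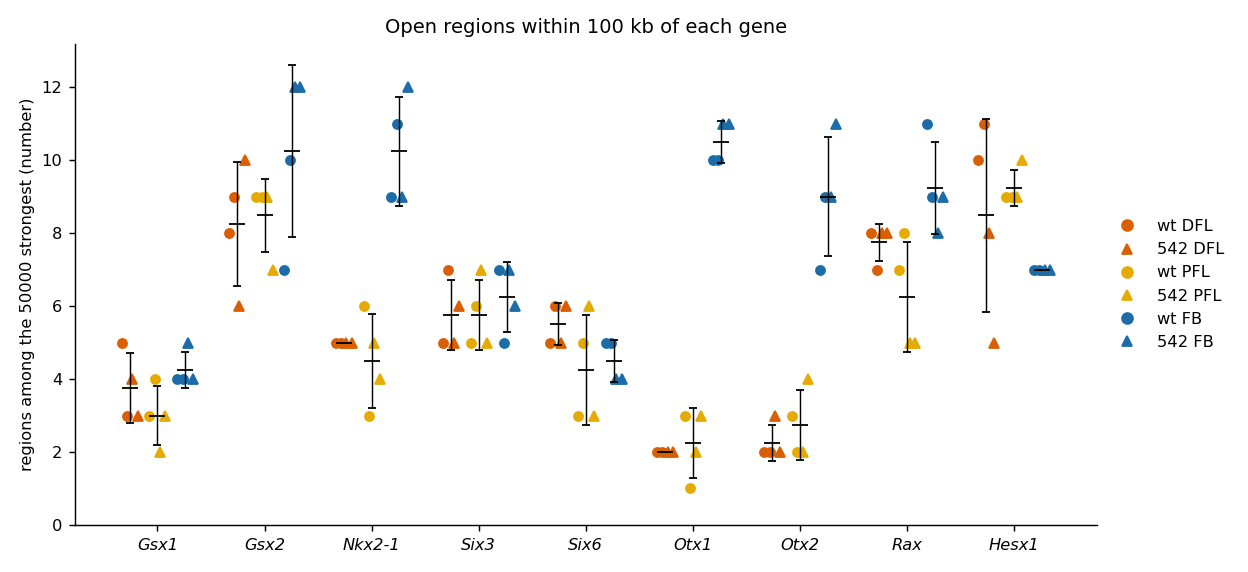
Number of regions within 100 kb of each gene among the 50000 strongest of each library (y axis), 1 point per library, by tissue (colour) and genotype (shape), with bars for the mean and SD of the 4 libraries of a tissue. Otx1, Otx2 and Nkx2-1 stand at 7 to 12 in forebrain and at 1 to 6 in limb, while the points of the other genes overlap between tissues.

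Otx1, an OTX-family gene of the dorsal forebrain and midbrain, showed the widest gap. It had 10, 10, 11 and 11 regions in the forebrain libraries (wt, then 542), 2 in each DFL library, and 3, 1, 2 and 3 in the PFL libraries. The forebrain mean of 10.5 ± 0.577 (SD, n = 4) exceeded the limb mean of 2.13 ± 0.641 (SD, n = 8) by 8.38 regions (adjusted p = 0.0141, exact permutation test). All 19 distinct regions of its window had the start of Otx1 as the nearest protein-coding start.

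Otx2, its paralog, required for the anterior neural plate and active in the midbrain, eye and choroid plexus, followed the same order. It had 7, 9, 9 and 11 regions in forebrain, 2, 2, 3 and 2 in DFL, and 3, 2, 2 and 4 in PFL. The difference was 6.5 regions (9.0 ± 1.63, n = 4, against 2.5 ± 0.756, n = 8; adjusted p = 0.0141, exact permutation test). All 17 regions of this window also had Otx2 as their nearest start.

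Nkx2-1, which specifies the medial ganglionic eminence, hypothalamus, lung and thyroid, had 9, 11, 9 and 12 regions in forebrain. It had 5 in each DFL library and 6, 3, 5 and 4 in PFL. The difference was 5.5 regions (10.3 ± 1.5, n = 4, against 4.75 ± 0.886, n = 8; adjusted p = 0.0141, exact permutation test). The 3 calls held with each of the 12 libraries left out in turn (adjusted p 0.0195 to 0.037, exact permutation test), but not under every cut of the lists. Among the 20000 strongest regions Otx1 (difference 1.38, adjusted p = 0.0895, exact permutation test) and Otx2 (1.25, adjusted p = 0.177) no longer passed. The Nkx2-1 call was lost within 50 kb (1.62, adjusted p = 0.132, exact permutation test) and within 200 kb (3.12, adjusted p = 0.0637).

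Rax, a gene of the eye field and hypothalamus, came next, with 11, 9, 8 and 9 regions in forebrain, 8, 7, 8 and 8 in DFL and 7, 8, 5 and 5 in PFL. Its difference of 2.25 regions did not pass (adjusted p = 0.095, exact permutation test), and 1 forebrain library tied with the highest limb libraries at 8. Gsx2, a determinant of the lateral ganglionic eminence, had 7, 10, 12 and 12 regions in forebrain against 6 to 10 in limb (adjusted p = 0.272, exact permutation test). Its paralog Gsx1 had 4, 4, 5 and 4 against 2 to 5 (adjusted p = 0.322, exact permutation test). Six3 had 7, 5, 7 and 6 against 5 to 7, and Six6 had 5, 5, 4 and 4 against 3 to 6, so both lay inside the limb range. Hesx1, a repressor of the anterior neural plate, had 7 regions in every forebrain library against a limb range of 5 to 11 with a median of 9.0 (difference -1.88, adjusted p = 0.226, exact permutation test).

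Some of these counts moved with the list and the libraries used. Counted over all deposited regions, Gsx1 (3.88 more regions in forebrain) and Gsx2 (7.12 more) joined the 3 genes above, and Hesx1 fell by 4.62 regions in forebrain, each with an adjusted p of 0.0206 (exact permutation test). Gsx2 also joined the 3 genes at a fold of at least 5 (3.12, adjusted p = 0.0178, exact permutation test) and at a −log10 q of at least 10 (4.12, adjusted p = 0.0142). It did so too with summits counted in place of regions (6.0, adjusted p = 0.0494, exact permutation test). Of the 15 distinct regions in the Hesx1 window, 12 had Il17rd and 2 had Hesx1 as the nearest start, and counted by nearest start the Hesx1 difference was -0.25 (adjusted p = 0.89, exact permutation test). Hesx1 also passed, at -2.43 regions, when the second 542 DFL library, which holds its lowest count of 5, was left out (adjusted p = 0.0199, exact permutation test).

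At the promoters the order of the genes was different. Six3, a gene of the eye field and the rostral forebrain, had a promoter region in all 4 forebrain libraries and in none of the 8 limb libraries. Promoter opening was scored as the percentile, by fold enrichment within the library, of the strongest region that reached within 500 bp of an annotated transcript start, and as 0 where none was called. For Six3 this percentile was 60.3, 63.6, 54.1 and 49.7 in forebrain and 0 in every limb library (adjusted p = 0.0195, exact permutation test). It was the only one of the 9 genes to pass with higher values in forebrain, beside 4.27% of 15098 genes. With 1 forebrain library left out the adjusted p ran from 0.0488 to 0.0515 (exact permutation test), and the call was lost without the second wt or the second 542 library. In that design of 3 against 8 libraries the smallest p is 0.00606. The region, chr17:85620573-85621248, covers the 2 downstream annotated starts of Six3, the nearer of them 92 bp from the summit, and no region was called at the most upstream one.

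**Figure D3:**
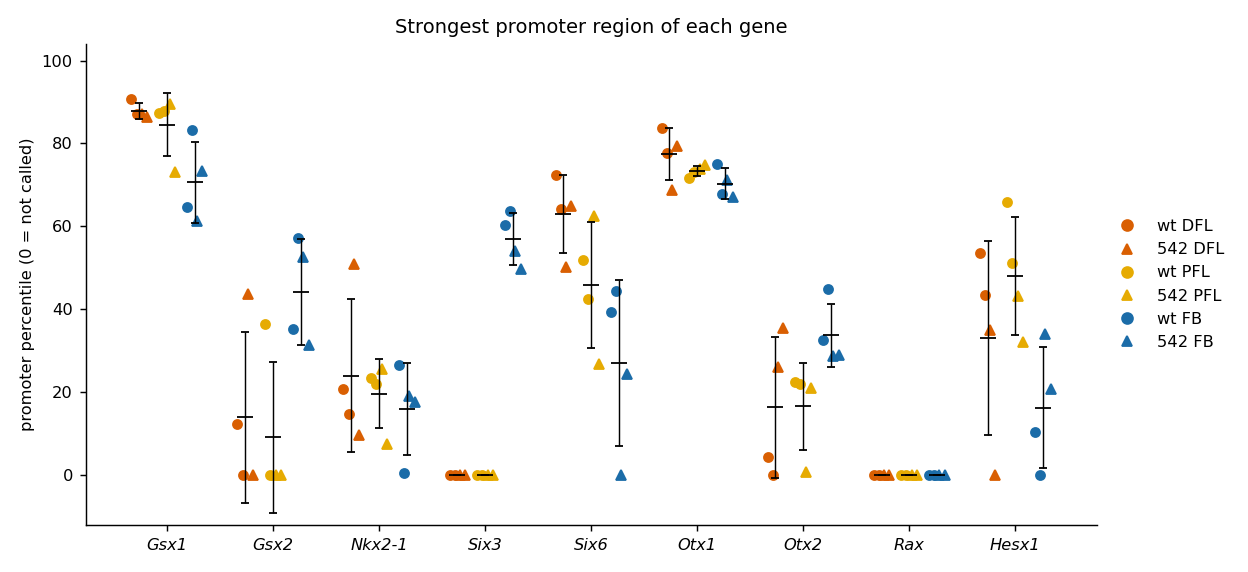
Percentile by fold, within each library, of the strongest region within 500 bp of a transcript start of each gene (y axis, 0 where none was called), 1 point per library by tissue (colour) and genotype (shape), with bars for the mean and SD of 4 libraries. Six3 is at 49.7 to 63.6 in forebrain and at 0 in limb, Gsx1 and Otx1 are high everywhere, and Rax stays at or near 0.

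Gsx1 had the highest mean promoter percentile of the 9 genes in limb. In forebrain its percentile was 64.8, 83.2, 61.3 and 73.4. The DFL libraries gave 90.7, 87.1, 87.1 and 86.3, and the PFL libraries 87.3, 87.9, 89.6 and 73.2. The lower forebrain percentile passed (difference -15.5, adjusted p = 0.0404, exact permutation test), 1 of 9 genes beside 12.1% of all genes, but the groups overlapped and the call was lost in 11 of the 12 fits with 1 library left out (adjusted p up to 0.0969, exact permutation test). Gsx2 had a promoter region in all 4 forebrain libraries (35.2, 57.3, 52.6 and 31.3) and in 3 of 8 limb libraries (12.3, 43.7 and 36.4). Its difference did not pass (adjusted p = 0.0932, exact permutation test). It passed when ranked by q-value in place of fold (45.4, adjusted p = 0.0172, exact permutation test) and at a −log10 q of at least 10 (44.1, adjusted p = 0.0201).

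The Otx1 promoter was open in all 12 libraries, at 75.1, 67.8, 71.3 and 67.1 in forebrain and 68.9 to 83.7 in limb. Otx2 was called in all 4 forebrain libraries at 28.8 to 44.9 and in 7 of 8 limb libraries at 0.709 to 35.4. Six6 had a promoter region in all 8 limb libraries (26.8 to 72.5) and in 3 of 4 forebrain libraries (24.4 to 44.5), and Hesx1 in 7 of 8 and 3 of 4. Nkx2-1 was called in all 12, at 0.568 to 50.9. None of these 5 differences passed. Six6 did so without the second 542 PFL library (difference -31.3, adjusted p = 0.0396, exact permutation test) and Hesx1 without the second 542 DFL library (-30.1, adjusted p = 0.0424). Ranked by q-value in place of fold, Otx2 passed with a higher percentile in forebrain (28.9, adjusted p = 0.0272, exact permutation test).

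Rax had no promoter region in any of the 8 compared limb libraries, and 1 forebrain library called one at a percentile of 0.0888. Yet a forebrain-only region, chr18:65941051-65941825, stood 1528 bp upstream of its most upstream start. When the promoter window was widened to 2000 bp, the Rax percentile was 76.4 higher in forebrain than in limb (adjusted p = 0.0197, exact permutation test), and the count of genes with a higher value rose to 2.

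The scale mattered for the promoters. Fold enrichment is taken over the local background around a region, and so can differ from the number of tags at a summit. That number was recovered from the deposited fold and p-value, divided by the library's depth, and tested in the same way, an alternative chosen after the percentiles were seen. The promoter of Otx1 then held 6.07, 4.73, 6.42 and 5.86 tags per M in forebrain and 2.15 to 3.58 in limb (5.77 ± 0.728, n = 4, against 2.76 ± 0.531, n = 8; adjusted p = 0.00901, exact permutation test). The groups did not overlap, whereas the percentiles of the same promoter did. Over the 12764 promoters called in all 12 libraries the median of the log2 ratio of forebrain to limb was 0.223, and Otx1 lay 0.84 above it on that scale. Six3 (2.05 ± 0.186 in forebrain), Gsx2 (0.967 ± 0.159 against 0.171 ± 0.242) and Otx2 (0.809 ± 0.0809 against 0.351 ± 0.164) passed with the same adjusted p and did not overlap between tissues. The share of all promoters whose groups separate by tags was not counted. Nkx2-1 passed at 0.723 ± 0.127 against 0.54 ± 0.109 (adjusted p = 0.0445, exact permutation test), although its groups overlapped and it lay 0.199 above the median ratio. Thus 5 of 9 genes were higher in forebrain by tags, beside 33.2% of 15094 genes, and 1, Six6 (0.34 ± 0.231 against 0.623 ± 0.137), was lower, beside 8.57%. A promoter that was not called entered these means as 0 tags per M. Six6 was called in 3 of 4 forebrain libraries, at 0.409 to 0.512, and overlapped the limb range of 0.453 to 0.771. Gsx2 was called in 3 of 8 limb libraries, at 0.349 to 0.531. Gsx1 held 1.42 ± 0.358 tags per M in forebrain and 1.51 ± 0.231 in limb, so its lower percentile was not seen in tags (adjusted p = 0.718, exact permutation test).

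To see which regions made up the counts, the lists of the 12 libraries were joined wherever regions overlapped, which gave 111905 regions, 131 of them near the 9 genes. Regions in the lists of all 4 forebrain and no limb library numbered 26, or 19.8%, beside 8.74% over the genome. Otx1 and Otx2 had 6 each, Nkx2-1 had 4, Gsx2 had 3, Six3, Six6 and Rax had 2 each, Hesx1 had 1 and Gsx1 had 0. For 20 of the 26 the nearest protein-coding start was that of the gene itself, and 5 lay within 10 kb of the gene's start. None of the 8 compared limb libraries called 17 of them at any rank. By position, 10 were intergenic, 14 intronic and 2 exonic. With the 20000 strongest regions per library 4 forebrain-only regions remained near these genes, and within 50 kb there were 10.

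**Figure D4:**
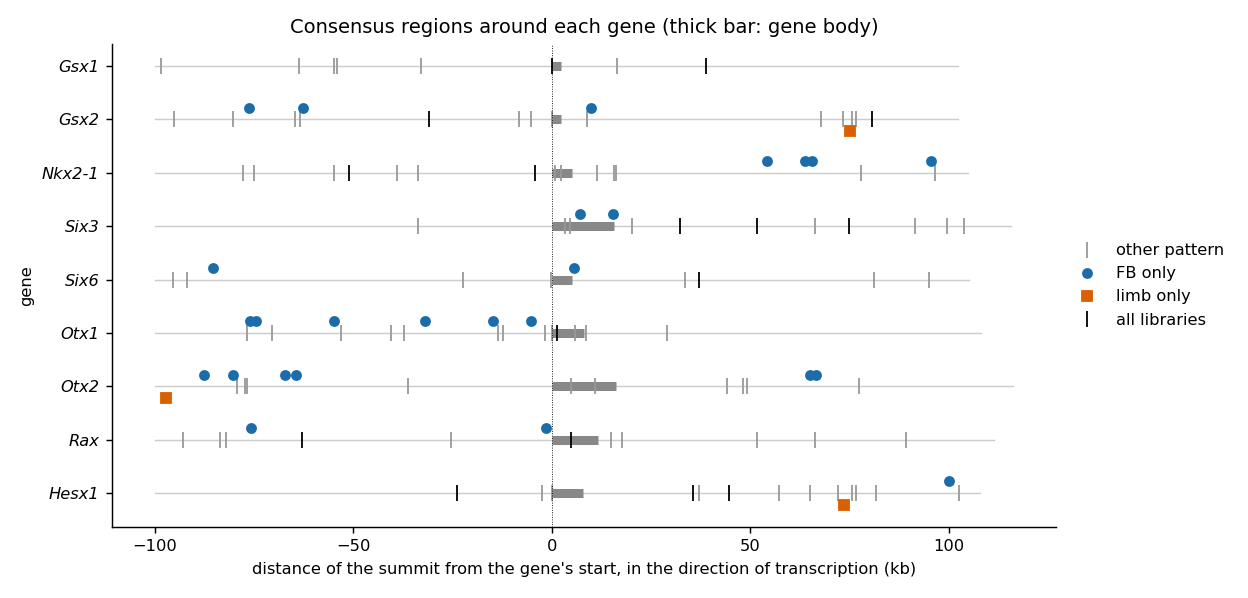
Consensus regions of the 12 libraries around each gene, placed by the distance of the summit from the gene's start (x axis, kb, in the direction of transcription), with a grey bar for the gene body, blue dots for regions in the lists of the 50000 strongest of all 4 forebrain and no limb library, orange squares for those in the lists of all 8 limb and no forebrain library, black ticks for regions in all 12 libraries and grey ticks for any other pattern. Of the 26 blue dots, those of Otx1 all lie upstream, those of Nkx2-1 all downstream and those of Otx2 on both sides of the gene, and there are 3 orange squares.

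The strongest forebrain-only region lay 14.7 kb upstream of Otx1, in an intron of Ehbp1 (chr11:22017258-22017975). Its fold enrichment was 15.7, 15.3, 16.6 and 14.8 in the forebrain libraries, on 208 to 311 tags at the summit. No limb library, the additional one included, called it. Other Otx1 regions at 31.9 kb (fold 6.47 to 6.7) and 54.8 kb upstream (4.67 to 6.72), also in introns of Ehbp1, were weaker and likewise called in forebrain libraries alone.

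Near Otx2, the strongest forebrain-only region lay 87.6 kb upstream in an intron of the long non-coding gene Otx2os1 (chr14:48760966-48761804). Its fold was 12.7, 10.2, 12.4 and 13.4 in forebrain, and 1 PFL library called it at 2.73. A region with the opposite pattern lay further upstream, at -97.2 kb, in the same host gene (chr14:48770613-48771547). There the fold was 6.74, 7.53, 5.71 and 6.23 in DFL and 12.7, 11.4, 8.12 and 7.39 in PFL, and the wt forebrain libraries called it at 3.04 and 3.69, below their 50000 strongest. Neighbouring regions of the Otx2 window were therefore open in different tissues.

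Near Gsx2, a region in an exon of the neighbouring gene Chic2 (chr5:74998924-74999796, 76.4 kb upstream of Gsx2) had folds of 11.7, 11.5, 12.7 and 11.9 in forebrain and was not called in limb. Its nearest protein-coding start was that of Chic2. A region 9771 bp downstream of the Gsx2 start (chr5:75084779-75085813) had folds of 7.65, 8.14, 7.03 and 7.32, and had Gsx2 as the nearest start. The 1 limb-only region of this window (chr5:75150406-75150989, fold 3.27 to 4.4) lay 1493 bp from a start of Pdgfra, a receptor gene of mesenchymal cells.

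All 4 forebrain-only regions near Nkx2-1 lay downstream of it, between 54.1 and 95.5 kb from its start. The strongest (chr12:56481990-56483597) had folds of 7.56, 5.88, 8.6 and 8.48 in forebrain, and among the limb libraries was called in the additional one, at 2.68. The farthest (chr12:56440875-56441762, fold 5.82 to 8.44 in forebrain) was also called in 7 of 8 limb libraries at 3.05 to 3.97, all below their 50000 strongest.

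The second Six3 region lay in an exon at the end of the gene (chr17:85628656-85629255, fold 4.98, 7.45, 7.85 and 8.99) and was called in 2 of the 8 compared limb libraries at 2.61 and 3.06. Both Six6 regions (fold 5.02 to 10.0 and 5.82 to 7.31 in forebrain) were also called at a lower rank in limb, in 4 and 6 of 8 libraries. The Rax region upstream of the promoter had folds of 6.96, 8.57, 9.28 and 8.35, and the Hesx1 region, in an intron of Il17rd (chr14:27094179-27094896), 7.14, 6.79, 6.46 and 7.23. Neither was called in limb. The nearest start to the Hesx1 region was that of Il17rd.

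**Figure D5:**
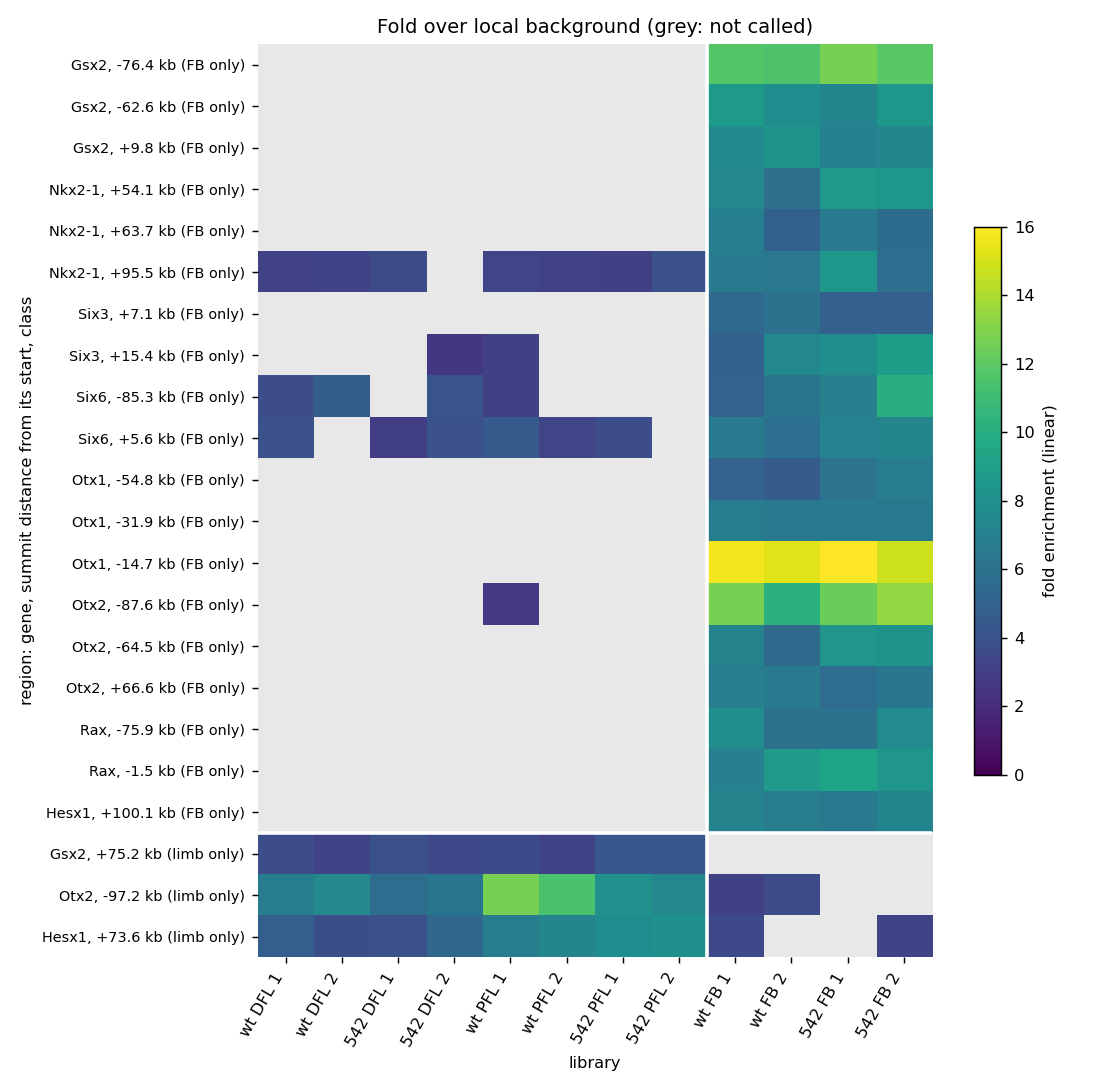
Fold enrichment over the local background (colour, linear scale that ends at 16) in the 12 libraries (columns) for the strongest forebrain-only regions of each gene, up to 3 per gene, and the 3 limb-only regions (rows), named by gene and distance from its start. Grey marks libraries in which no region was called. The Otx1 region at -14.7 kb is the brightest, at 14.8 to 16.6, and the forebrain-only rows are grey or dark in limb.

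Regions in the lists of all limb and no forebrain library numbered 3 near the 9 genes (2.29%), beside 4.77% over the genome. The third, in an intron of Il17rd near Hesx1 (chr14:27067796-27068579), had folds of 4.8, 3.86, 3.99 and 5.25 in DFL and 6.69, 7.26, 7.8 and 8.02 in PFL. These did not overlap between the 2 limb tissues, a difference that was not tested, and 2 forebrain libraries called the region at 3.56 and 3.29. Regions in all 12 libraries numbered 16 (12.2%), beside 16.9%, and they included the promoters of Gsx1 and Otx1.

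Between distal and proximal forelimb, no difference was detected near these genes. The largest differences in the number of regions were 1.5 for Rax (DFL 7.75 ± 0.5, PFL 6.25 ± 1.5, n = 4 each) and 1.25 for Six6, with exact permutation p of 0.257 and 0.343. None of the 9 genes passed, beside 0% of 19215 genes, where the smallest adjusted p of any gene was 0.417 (exact permutation test). The smallest p this exact permutation test can give is 0.0286. After adjustment a gene could pass only if a large part of all genes reached that value, so the adjusted result says little about single genes. Without adjustment, 1318 genes (6.86%) and 0 of the 9 fell below 0.05. Of regions in all 4 DFL libraries alone there were 2 (1.53%), 1 near Otx1 and 1 near Hesx1, beside 1.88% over the genome. Of regions in all 4 PFL libraries alone there were 0, beside 1.81%.

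Nor was a difference between 542 and wt embryos detected. With genotype permuted within tissue, Rax and Hesx1 each fell by 1.17 regions in 542, with exact permutation p of 0.139 and 0.333, and Otx2 rose by 1.0 in value with an exact permutation p of 0.222. None of the 9 genes passed, beside 0% of all genes (smallest adjusted p 0.869, exact permutation test), and 772 genes (4.0%) but 0 of the 9 fell below 0.05 without adjustment. The smallest p this exact permutation test can give is 0.00926, so after adjustment a gene could pass only if many genes reached that value. Over all deposited regions, in lists not cut to equal length, Rax was lower in 542 (-2.0, exact permutation p = 0.00926, adjusted p = 0.274). So were Six3 (-2.83) and Six6 (-2.5), each with an exact permutation p of 0.037 and an adjusted p of 0.293. In the lists cut to equal length, Rax in PFL had 7 and 8 regions in wt and 5 and 5 in 542. Hesx1 in DFL had 10 and 11 in wt and 8 and 5 in 542. Six6 in forebrain had 5 and 5 in wt and 4 and 4 in 542. The order was opposite in forebrain for Otx1, with 10 and 10 in wt and 11 and 11 in 542. It was also opposite there for Gsx2, with 7 and 10 in wt and 12 and 12 in 542. These groups of 2 did not overlap and were not tested by themselves. How often such groups separate over all genes was not counted, so no genotype effect is read from them.

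Single regions were in the lists of both libraries of one genotype and of neither library of the other in each tissue. In forebrain there were 6 near the 9 genes in wt alone (4.58%, beside 1.70% over the genome) and 2 in 542 alone (1.53%, beside 1.64%). In DFL there were 4 (3.05%, beside 2.56%) and 1 (0.763%, beside 2.06%), and in PFL 3 (2.29%, beside 2.67%) and 1 (0.763%, beside 2.15%). The strongest wt-only region in forebrain was 81.2 kb downstream of the Six6 start (chr12:73020615-73021299). Its fold was 6.42 and 5.53 in wt forebrain against no call and 4.0 in 542 forebrain, 6.89 and 7.0 in wt DFL against 4.24 and 4.53, and 4.66 and 4.07 in wt PFL against no call in either 542 library. It was thus higher in wt in each of the 3 tissues, on 22 to 54 tags at the summits called, a difference that was chosen from these values and not tested. Every 542 limb library was shallower than every compared wt limb library, and the part of depth in these genotype counts and folds was not tested. The strongest 542-only region in forebrain lay 95.3 kb upstream of Gsx2, at 4.63 and 5.94 in 542 and 3.91 and 3.97 in wt, so it changed rank across the limit of 50000 rather than appearing.

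Other genes of the same pathways were counted for context, from lists drawn up with earlier results of these data known. Of 17 subpallial genes, 9 had more regions in forebrain and 0 had fewer (median difference 2.75), among them Olig2 (13 ± 1.41 in forebrain, 3.25 ± 0.957 in DFL and 2.0 ± 0.816 in PFL), which marks ventral progenitors. Of 12 eye field and optic vesicle genes 5 had more and 1 fewer, and of 13 hypothalamic and pituitary genes 7 had more and 1 fewer. Of 7 paralogs of the 9 genes, 0 had more and 1 fewer: Six4, with 4.25 ± 0.5 regions in forebrain against 9.75 ± 1.71 in DFL and 10.3 ± 0.5 in PFL. These counts read against the same 14.2% and 11.0% of all genes.

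Genes whose numbers of regions ran much like the summed number of the 9 genes over the 12 libraries, among 16654 genes, were Wnt7a (Pearson r = 0.985), Cox6b2 (0.984), Kmt5c (0.984) and Gm11487 (0.98). Wnt7a, a WNT ligand, had 12, 13, 12 and 15 regions in forebrain and 4 to 7 in limb. Cox6b2 and Kmt5c are neighbours with the same counts. The 12 points of each correlation share the libraries and fall into a forebrain and a limb group, so these values describe the contrast of tissues.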

How the data were processed

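The deposited files were peak lists, 1 per library. According to the study's methods, the authors trimmed reads with Cutadapt, mapped them with bowtie to mm10 (wt) or to the 542 mutant genome, kept well-mapped pairs, removed duplicates with Picard and called peaks with MACS2 in each library alone. The deposited columns are the fold enrichment over the local background (a ratio), the −log10 p-value and −log10 q-value, and a score. A position past the insertion differs between the genomes, so chromosome 2 from 75 Mb on was left out, with the genes there. Tags per summit came from the deposited fold and p-value (tolerance 0.001, or 0.01 above a −log10 p of 250), extended to 200 bp.

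Genes were those of GENCODE M21. The 9 genes and all lists were chosen with earlier results of these data known. Named regions were each gene's promoter, up to 3 forebrain-only and 1 limb-only region per gene, and up to 3 regions per genotype and tissue. Two-sided exact permutation tests took the absolute difference of means, adjusted by Benjamini-Hochberg over all genes with a region. The p-values measure the spread between libraries, each from a pool of embryos. For forebrain against limb, labels were exchanged over all compared libraries. That spread therefore includes differences between genotypes and between DFL and PFL, as well as between pools. For DFL against PFL it includes differences between genotypes. The permutation tests were tested on simulated data. Counting error of each region was not modelled. Python 3.11.15, numpy 2.4.6 and pandas 2.3.3 were used. Some genes of the lists are not reported here.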

Additional observations from a re-analysis of the deposited data

Results flagged for a closer look

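The additional wt DFL library, which entered no comparison, held 4 regions near Otx2 among its 50000 strongest, where the 4 compared DFL libraries held at most 3. In the same library the promoter of Rax was called, at a percentile of 20.1 by fold, where none of the 4 compared DFL libraries called it. This library was the deepest, at 78.0 M tags (M, mega) and 131691 regions, and the part of depth in these calls was not tested.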

How the results depend on the processing

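The number of genes with more regions in forebrain (3) was 3 with any 1 library left out. It was 5 over all deposited regions. Gsx2 joined the 3 genes at a fold of at least 5, at a −log10 q of at least 10 and with summits in place of regions. Gsx1 joined the 3 genes by nearest start (1.5, adjusted p = 0.0334, exact permutation test). The number was 2 among the 20000 strongest, where Gsx2 (1.75) and Nkx2-1 (1.62) passed and Otx1 and Otx2 did not. It was 3 within 50 kb and 2 within 200 kb, in both without Nkx2-1, with Gsx1 passing within 50 kb. It was 0 under the replicate block and 0 when all libraries of a replicate number were left out, designs whose smallest exact permutation p (0.0123 and 0.0667) could not pass, so the range with libraries left out was 0 to 3. The counts showed no sign that replicate numbers pair the samples, with 15 correlations of deviations from -0.0626 to 0.0478. Such correlations cannot show whether libraries of the same number shared embryos or a batch, which the labels do not say. The number of genes with a higher promoter percentile (1) was 2 with a −log10 q of at least 10, 2 with a 2000 bp window, 3 when ranked by −log10 q, 5 by tags per M, 0 under the replicate block and 0 to 1 with libraries left out. The 26 forebrain-only regions became 4 among the 20000 strongest, 17 at a fold of at least 5 and 10 within 50 kb. The 3 limb-only regions became 0 among the 20000 strongest, 5 over all deposited regions, 1 at a fold of at least 5, 1 by nearest start, 9 within 200 kb, 0 within 50 kb and 3 to 6 with libraries left out. Tags per M and the single libraries left out were chosen after seeing the data.

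Differences that changed sign had not passed the test. In promoter percentile, forebrain minus limb, Nkx2-1 was 0.272 with a −log10 q of at least 10, 0.262 with a 2000 bp window, 4.9 ranked by q and 0.183 in tags per M. Otx1 was 4.23 ranked by q and 3.01 in tags per M, and Rax was -2.21 with the additional library. In regions, forebrain minus limb, Gsx1 was -0.125 among the 20000 strongest, Hesx1 0.375 and Six6 0.875 at a fold of at least 5, Six6 0.25 with a −log10 q of at least 10, and Six3 -0.25 within 200 kb and -0.5 to 1.5 with libraries left out. In DFL minus PFL over all deposited regions, Nkx2-1, Six6 and Rax were each -0.5 and Hesx1 was 1.25. Gsx2 was 0.5 and Otx1 0.75 among the 20000 strongest, and Gsx2 was 0.25 and Otx1 0.5 at a fold of at least 5. With libraries left out Gsx1 ran from -0.5 to 2.0, Gsx2 from -2.0 to 1.5 and Nkx2-1 from -0.5 to 1.5. In 542 minus wt over all deposited regions, Gsx2 was -1.17, Nkx2-1 -2.0, Six3 -2.83, Otx1 -0.5 and Otx2 -3.0. Gsx2 was -0.833, Six6 0.167 and Rax 0.167 among the 20000 strongest, and Gsx2 was -0.833 and Six3 -0.667 at a fold of at least 5. With libraries left out Nkx2-1 and Six3 ran from -0.333 to 0.667 and Six6 from -1.0 to 0.667. The cause was not tested. The effect of depth on weak promoters was not tested.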
